A study of Mus musculus with 16 samples.

Results

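Kinesins are motor proteins that burn ATP to move along microtubules. Genes of this family were taken as every array row whose mouse gene symbol begins with Kif and a digit, and 40 of the 30921 genes tested had such a symbol. Each of the 40 was measured by 1 row of 14 to 40 probes. Of these, 37 are motor genes, and 3 share only the symbol: Kif1bp codes for a kinesin-binding protein, Kif4-ps is a pseudogene and Kif16bos is a transcript from the opposite strand of Kif16b. The series held 16 Affymetrix MoGene-2.0-ST arrays of spleen CD4 T cells, labelled as C54BL/6 wild type, from male mice of 8 weeks and cultured for 3 days. There were 4 arrays in each of 4 groups. The Eze group was cultured under Th17-inducing conditions with 20 µM ezetimibe, a blocker of intestinal cholesterol uptake, and the Rsv group under the same conditions with 20 µM rosuvastatin, a statin that inhibits cholesterol synthesis. The Th17 group had the inducing conditions with no drug, and the Th0 group was the uninduced culture. The sources do not say whether the 4 arrays of a group came from separate mice or cultures, so the p-values measure the spread between these arrays, which may be technical. The sources also differ on how long the drugs were present and on whether purified T cells or whole splenocytes were treated.

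Kinesins of dividing cells build and shorten the spindle, carry chromosomes along it and finally split the daughter cells. Their transcripts are made mainly late in the cell cycle, and T cells that are activated enter rapid division. Other kinesins carry vesicles, mitochondria and endosomes along microtubules in cells that may not divide at all, and still others trim microtubule ends or work in the cilium. The motor genes were therefore read in classes: 11 mitotic kinesins, 13 transport kinesins, 6 microtubule regulating kinesins, 4 ciliary or Hedgehog pathway kinesins and 3 of other roles.

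Signals were log2 values, so that a difference between group means is a log2 fold change. All 11 mitotic kinesins exceeded the 95th percentile of the 23 background control rows in at least 1 group, against 3 of 13 transport kinesins (Kif1b, Kif3b and Kif5b) and 2 of 6 microtubule regulating kinesins (Kif2a and Kif21b). Of the 30921 genes tested, 6528 exceeded this percentile in at least 1 group. In Eze and Rsv all 11 mitotic kinesins exceeded it, in Th17 8 did, and in Th0 only Kif11 did, where the 95th percentile ran from 6.84 to 7.16. On the arrays of the other groups it ran from 6.34 to 6.85. The Th0 levels of the other 10 mitotic genes, from which their differences are taken, were thus below that bar. By the lower bar of the median background row, 39 of the 40 genes were above it in every group, and Kif21a was not. A difference taken from a level below the 95th percentile starts within the range of the background rows. The median background row read 2.56 to 2.66 on Th0 arrays, and the Th0 means of those 10 mitotic genes ran from 5.46 to 6.85.

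Most promoters of the mitotic kinesins shared a short word. The CHR element, TTTGAA, is known from promoters of genes that are silent in resting cells and switched on late in the cell cycle. The class was drawn by role in division, so a high share of this word is no independent support for the class. RefSeq promoter windows of 300 bases, 250 before and 50 after the annotated start, were at hand for 32 of the 40 genes. TTTGAA on either strand was found in 9 of the 10 mitotic kinesins with a window, Kif18a being the exception. In transport kinesins it was found in 1 of 10, Kif1a, in 1 of its 2 windows. It was also found in the ciliary gene Kif27, with 3 matches, and in Kif26b. Of all 27025 genes with a window, 20.2% held it. The related word TTTAAA was in 2 of the 10 mitotic windows (Kif14 and Kif2c), in none of the 10 transport genes, and in 14.9% of all genes with a window. The CCAAT box, which often lies upstream of a CHR element, was in 6 of 10 mitotic and 3 of 10 transport genes, and in 41.1% of all genes with a window. Both strands were searched and overlapping matches were each counted. The 9 stretches printed here are the 75 bases before the start and the 25 from it, in GRCm38.p6, 5′ to 3′ on the gene's strand, with the CHR word in capitals (TTCAAA is the word on the other strand). They show the mitotic genes with a match close to the start, and then Kif18a and the transport gene Kif1b, which have none.
Kif11, chr19:37376307-37376406, plus strand: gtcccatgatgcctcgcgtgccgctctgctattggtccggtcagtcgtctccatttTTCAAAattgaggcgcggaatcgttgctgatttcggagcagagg
Kif15, chr9:122951006-122951105, plus strand: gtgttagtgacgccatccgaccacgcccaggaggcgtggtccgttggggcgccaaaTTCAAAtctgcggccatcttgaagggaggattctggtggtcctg
Kif22, chr7:127042396-127042495, minus strand: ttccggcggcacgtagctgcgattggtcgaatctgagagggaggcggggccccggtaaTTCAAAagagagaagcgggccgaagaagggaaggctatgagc
Kif23, chr9:61946775-61946874, minus strand: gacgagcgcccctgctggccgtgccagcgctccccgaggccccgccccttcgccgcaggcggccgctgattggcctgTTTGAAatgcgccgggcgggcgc
Kif18b, chr11:102925100-102925199, minus strand: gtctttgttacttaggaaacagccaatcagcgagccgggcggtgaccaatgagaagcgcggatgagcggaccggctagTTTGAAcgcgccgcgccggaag
Kif20b, chr19:34922283-34922382, plus strand: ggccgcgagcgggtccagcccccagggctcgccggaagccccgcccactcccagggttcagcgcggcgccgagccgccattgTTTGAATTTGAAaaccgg
Kif4, chrX:100625990-100626089, plus strand: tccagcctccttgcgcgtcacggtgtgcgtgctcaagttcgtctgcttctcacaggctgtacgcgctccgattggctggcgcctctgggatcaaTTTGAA
Kif18a, chr2:109280663-109280762, plus strand: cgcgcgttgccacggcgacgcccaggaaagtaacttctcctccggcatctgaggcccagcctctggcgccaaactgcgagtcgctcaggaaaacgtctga
Kif1b, chr4:149307674-149307773, minus strand: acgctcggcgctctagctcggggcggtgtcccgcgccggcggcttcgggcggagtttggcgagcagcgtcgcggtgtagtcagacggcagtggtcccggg
In Kif11 and Kif15 the match began 19 bases before the start, and in Kif22 17 bases before it. In Kif23, Kif18b and Kif20b it lay just after the start, and Kif20b held 2 copies end to end. A match is a description of the letters, and no binding was measured. Kif20a, the kinesin that brings the chromosomal passenger complex to the midzone, had no window, and neither did Kif5a, Kif5b, Kif13b, Kif19a, Kif21b, Kif1bp and Kif4-ps.

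**Figure D1:**
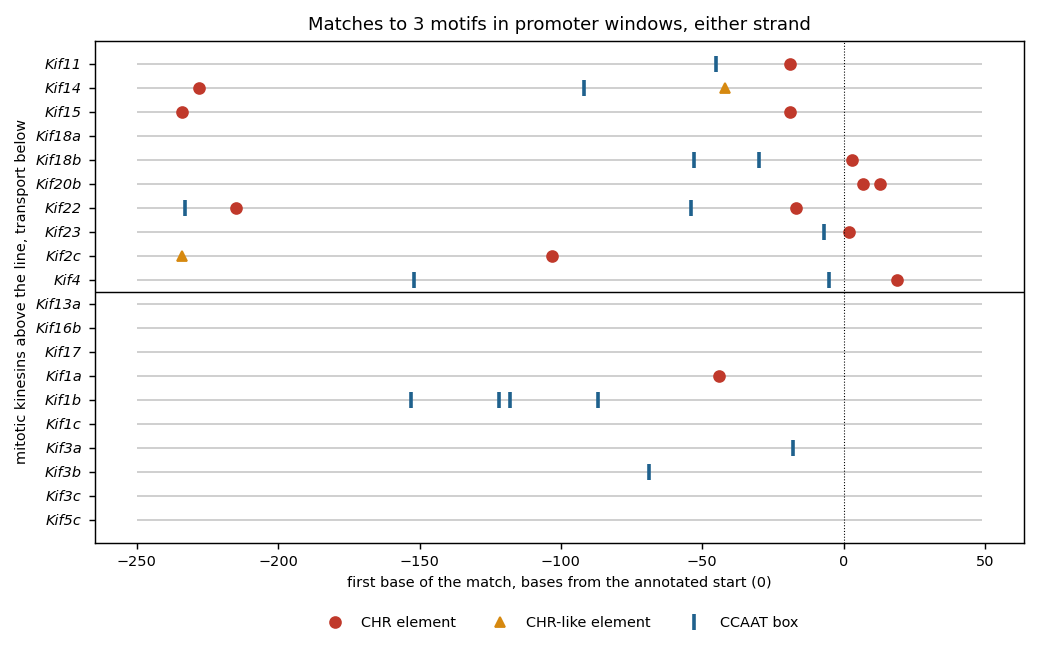
Matches to the CHR element, the CHR-like word and the CCAAT box in promoter windows of 10 mitotic kinesins (above the line) and 10 transport kinesins (below it). The horizontal axis is the distance of the first matching base from the annotated start, in bases. Kif1a and Kif1b have 2 windows each, drawn on 1 line, so each CCAAT box of Kif1b appears at 2 distances. The CHR element is in 9 mitotic rows and 1 transport row.

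Before the comparisons, some properties of the arrays bear on all of them. In each group 1 array carries a name without a number and the other 3 are numbered. In the deposited table the names of the 4 unnumbered arrays begin with one code and those of the 12 numbered arrays with another, so they may be separate runs, and the sources do not say what the codes are. Both codes occur in every group, and values with this split as a block and within each set of arrays are given with the results. The unnumbered Rsv array got the lowest quality weight of the 16 (0.42). All 7 T cell markers were above the background median in every group, and so were all 7 B cell markers and all 7 cytotoxic and NK cell markers, in cells labelled as CD4 T cells. The summed linear signal of the B cell markers was 336.9 to 368.9 on Eze arrays, 234.9 to 268.9 on Rsv arrays, 202.2 to 225.8 on Th17 arrays and 806.3 to 872.4 on Th0 arrays. The sum of the 7 T cell markers was 5603 to 5991 on Eze, 6339 to 6894 on Rsv, 7477 to 7843 on Th17 and 5771 to 6035 on Th0 arrays. The cytotoxic and NK cell markers summed to 413.7 to 467.1 on Eze arrays and 964.6 to 1171 on Rsv arrays, against 753.7 to 773.6 on Th17 and 531 to 584.3 on Th0 arrays. The myeloid markers summed to 89 to 99.25 on Eze and 180.8 to 213.7 on Rsv arrays, against 109.7 to 122.7 on Th17 and 71.84 to 89.34 on Th0 arrays. The separation of exon from intron control probes, an area under the curve, was 0.890 to 0.894 on Eze arrays and 0.870 to 0.881 on all others. The part of cell composition and RNA quality in the kinesin results was not tested. In cultures measured in bulk, fewer cells of a type and less RNA per cell cannot be told apart.

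All 11 kinesins classed as mitotic were higher in Th17 than in Th0 cultures. The log2 differences ran from 0.45 for Kif18a to 1.21 for Kif22, with a median of 0.81, where the median of all genes was -0.03. Of all genes tested, 8.5% were called higher and 7.29% lower at an adjusted p under 0.05 by limma. The arrays of the 2 groups did not overlap for any of the 11 genes, and 10.1% of all genes were without overlap in that direction. For 4 arrays against 4, an exact two-sided permutation test cannot go below p = 0.0286, and each of the 11 genes reached that value. The count of 11 depends on the class as drawn, with earlier results known. Kif2a and Kif2b, which share a name stem with Kif2c, were placed in another class and were not called here (0.18 and -0.06). Kifc1, a kinesin that the symbol rule does not take, was not called either (0.13, limma adjusted p = 0.621).

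The 3 largest differences were in a chromosome motor and in motors of the last step of division. Kif22, a chromokinesin that pushes chromosome arms toward the spindle middle, read 7.18, 7.28, 7.21 and 7.22 on the Th17 arrays (the unnumbered array first, then numbers 1 to 3, as in all such lists). On the Th0 arrays Kif22 read 6.06, 5.95, 6.04 and 5.99. Every Th17 value was over 1 log2 unit above every Th0 value, a difference of 1.21 ± 0.09 (SE, adjusted p = 9.99e-09). Kif14, which works with citron kinase in cytokinesis, read 6.62, 6.52, 6.57 and 6.54 in Th17, against 5.48, 5.61, 5.11 and 5.62 in Th0. The Th17 arrays lay close together, the Th0 arrays were spread more widely, and the difference was 1.11 ± 0.11 (adjusted p = 4.39e-07). Kif20a read 7.51, 7.31, 7.21 and 7.48 in Th17, against 6.48, 6.23, 6.20 and 6.19 in Th0. The unnumbered array was the highest of its group in both cases, and the difference was 1.10 ± 0.09 (adjusted p = 3.97e-08).

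Of the other spindle motors, Kif18b and Kif2c, which act together at microtubule ends, both rose by 0.96. Kif23, the motor subunit of centralspindlin, rose by 0.81 ± 0.08 in Th17 cultures, and the chromokinesin Kif4 by 0.73 ± 0.10. Kif15 (0.72) and Kif11 (0.61), the pair of motors that push spindle poles apart, rose as well. Kif20b, a motor of cytokinesis, rose by 0.70 ± 0.10.

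On the Th0 arrays Kif23 read 6.52, 6.33, 6.41 and 6.36 and Kif4 read 6.15, 6.09, 5.78 and 5.99. Kif15 read 6.27, 6.19, 6.02 and 6.39 there, and Kif20b read 6.81, 6.87, 6.86 and 6.79. All 4 genes were higher on every Th17 array, whose values are given with the drug groups. Kif18a, which damps the oscillation of chromosomes at the metaphase plate, had the smallest rise, with 6.56 ± 0.12 in Th17 and 6.11 ± 0.05 in Th0 cultures (SD, n = 4 each, adjusted p = 0.00327).

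**Figure D2:**
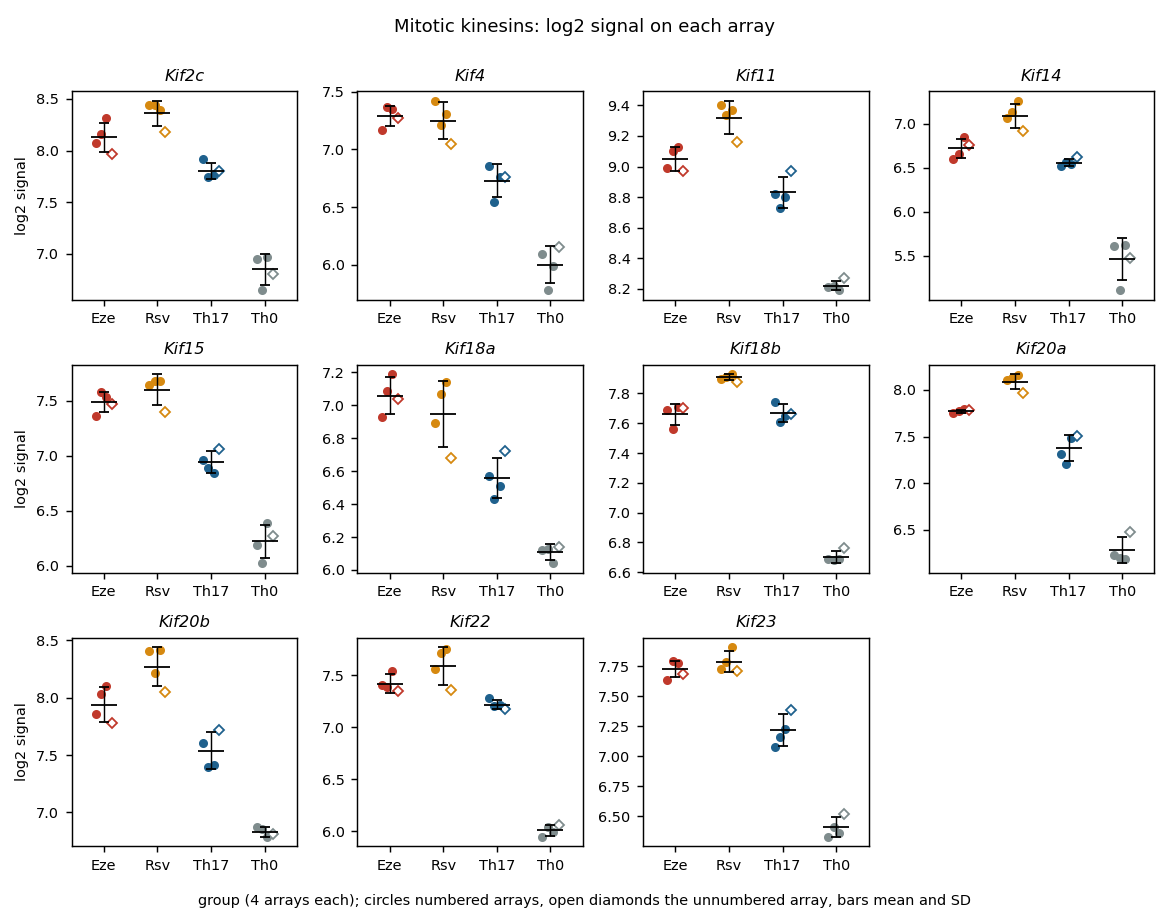
Log2 signal of each of the 11 mitotic kinesins on every array, 4 arrays a group, with its own vertical range for each gene. Filled circles are numbered arrays, open diamonds the unnumbered array, and the bars give mean and SD. All Eze, Rsv and Th17 arrays lie above all Th0 arrays in each panel.

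Transport kinesins did not move together in Th17 cultures. Of the 13, 4 were called higher and 2 lower than in Th0 (30.8% and 15.4%), beside 8.5% and 7.29% of all genes. Their median difference was -0.07. Kif1a, a carrier of synaptic vesicle precursors, read 4.92, 4.41, 4.73 and 5.0 in Th17, against 4.10, 4.01, 4.02 and 3.92 in Th0. All 4 Th17 arrays were higher, although the signal stayed below the 95th percentile of background, and the difference was 0.75 ± 0.11 (adjusted p = 5.43e-05). Kif3c, a kinesin-2 motor subunit, read 6.13, 6.13, 5.72 and 6.01 in Th17, against 5.40, 5.63, 5.31 and 5.28 in Th0. The groups did not overlap, with a difference of 0.59 ± 0.11 (adjusted p = 0.000676). Kif5c, a neuronal kinesin-1 heavy chain, read 4.38, 4.36, 3.95 and 4.45 in Th17, against 3.21, 3.66, 3.68 and 4.09 in Th0. Here the highest Th0 array was above the lowest Th17 array, and the difference of 0.63 ± 0.15 (adjusted p = 0.0061) was not called on the numbered arrays alone (0.44, adjusted p = 0.0609). The means of Kif3c and Kif5c were also below the 95th percentile of background in every group.

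The other calls among transport kinesins were smaller. Kif1b, which carries mitochondria and vesicles, was higher in Th17 by 0.29 (adjusted p = 0.0158). Kif13b, a vesicle motor that binds the scaffold protein Dlg1, averaged 6.50 in Th17 and 6.89 in Th0, a difference of -0.39 ± 0.09. Kif3a, the partner of Kif3b in heterotrimeric kinesin-2, averaged 6.11 in Th17 and 6.42 in Th0 (adjusted p = 0.0256). The Kif3a call was lost when each array was centred on its median (-0.28, adjusted p = 0.112), and that of Kif1b on the numbered arrays alone (adjusted p = 0.0519). Kif3a was also not called with only the 2 groups fitted (adjusted p = 0.0594). The same held without Th0 array 1 or 2 or Th17 array 2 or 3 (adjusted p 0.0758 to 0.0897). The Kif1b call was also lost without Th0 array 1 (adjusted p = 0.0602) or Th17 array 1 (adjusted p = 0.0515). No call was made for Kif1c, Kif3b, Kif5a, Kif5b, Kif13a, Kif16b and Kif17, whose differences lay between -0.16 and 0.13.

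Other mitotic genes were read beside these motors. Of 19 measured partners of mitotic kinesins, 18 were higher in Th17 than in Th0 and none lower, with a median of 0.65. Prc1, the midzone bundler that recruits Kif4, rose by 1.27 ± 0.08, the RhoA exchange factor Ect2 by 1.09 ± 0.10 and the spindle protein Nusap1 by 1.06 ± 0.08. Of 20 regulators of G2 and M phase, 14 were higher, led by the cyclins Ccnb2 (1.41) and Ccna2 (1.14). Cenpe, a kinetochore kinesin outside the Kif naming, was higher by 0.95 ± 0.09, and the other 5 kinesins with another name were not called. Of 19 transport partners, 2 were higher and 1 lower (10.5% and 5.26%), and of 23 dynein and dynactin genes 2 were higher (8.7%), shares close to the 8.5% higher and 7.29% lower among all genes.

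Ezetimibe-treated Th17 cultures had still more of most mitotic kinesin transcripts. In Eze, 7 of the 11 were called higher than in Th17 and none lower, with a median difference of 0.40. Of all genes, 11.2% were called higher and 10.5% lower in this comparison, and the median of all genes was -0.04. The 7 genes were Kif4 (0.56), Kif15 (0.55), Kif23 (0.51), Kif18a (0.51), Kif20b (0.41), Kif20a (0.40) and Kif2c (0.33). The other 4 were Kif11 at 0.22 ± 0.08 (adjusted p = 0.0569), Kif22 at 0.20 ± 0.09 (adjusted p = 0.116), Kif14 at 0.15 ± 0.11 (adjusted p = 0.379) and Kif18b, whose means were 7.66 in Eze and 7.67 in Th17 (SE 0.07, adjusted p = 0.991). Kif22 read 7.35, 7.41, 7.39 and 7.54 in Eze, all above the Th17 arrays though not called. The Kif11 arrays did not overlap either, although the lowest Eze and highest Th17 array both read 8.97 after rounding. Kif11 was called on the numbered arrays alone (0.29, adjusted p = 0.0151) and with centred arrays (0.29, adjusted p = 0.0367). The count of 7 also depends on the class as drawn. Kif2a, placed in another class, was called lower in Eze than in Th17 (-0.28), though not on the numbered arrays alone (adjusted p = 0.173). Kifc1 was not called (0.02).

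Kif4 read 7.27, 7.17, 7.37 and 7.35 on Eze arrays, against 6.76, 6.86, 6.54 and 6.76 on Th17 arrays. The groups were clear of each other, and the difference was 0.56 ± 0.10 (adjusted p = 0.000425). Kif15 read 7.47, 7.36, 7.58 and 7.53 in Eze, against 7.06, 6.96, 6.89 and 6.84 in Th17. Again no arrays overlapped, with a difference of 0.55 ± 0.09 (adjusted p = 0.000222). Kif23 read 7.69, 7.64, 7.80 and 7.78 in Eze, against 7.39, 7.08, 7.16 and 7.23 in Th17. Its lowest Eze array was above its highest Th17 array, and the difference was 0.51 ± 0.08 (adjusted p = 0.000152).

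The size of this mitotic difference was not the same on the arrays with and without a number. The median over the 11 genes was 0.44 on the numbered arrays and 0.17 on the unnumbered arrays, 1 a group and untested. For Rsv against Th17 these medians were 0.61 and 0.30, and for Th17 against Th0 they were 0.79 and 0.90. With the kind of array name as a block, the calls among mitotic kinesins were 7 in Eze against Th17, 11 in Rsv against Th17 and 11 in Th17 against Th0. Leaving out single arrays left 6 to 8 of the 11 called in Eze against Th17, and the Kif2c call was lost without Th17 array 2 or 3 or Eze array 2 or 3 (adjusted p 0.0507 to 0.0815).

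Transport kinesins again moved both ways in Eze, with 3 called higher, 4 lower and a median of -0.04. These calls were 23.1% and 30.8% of the class, beside 11.2% and 10.5% of all genes. Kif13a, which carries recycling endosomes, read 5.36, 5.40, 5.87 and 5.58 in Eze, against 4.97, 4.88, 5.14 and 4.92 in Th17. The difference was 0.58 ± 0.12 (adjusted p = 0.00113), and the Eze arrays were the more spread. Kif16b, an early endosome motor, read 6.38, 6.46, 6.35 and 6.49 in Eze, against 5.97, 6.09, 5.68 and 6.03 in Th17. Its Eze arrays all lay above its Th17 arrays, by 0.48 ± 0.12 on average (adjusted p = 0.00512). The means of Kif13a and Kif16b were below the 95th percentile of background in every group. Kif3b read 6.96, 6.83, 7.07 and 7.10 in Eze, against 6.53, 6.74, 6.28 and 6.57 in Th17, a difference of 0.46 ± 0.11 (adjusted p = 0.00301). All 3 were higher in Eze than in Th0 as well, where Kif13a read 5.28, 5.06, 5.10 and 4.77, Kif16b 6.14, 6.23, 5.93 and 5.95, and Kif3b 6.42, 6.37, 6.40 and 6.39 (adjusted p = 0.00428, 0.0335 and 0.000356). The Kif16b call against Th0 was lost without Th0 array 2 or 3 or Eze array 1, 3 or the unnumbered one (adjusted p 0.0533 to 0.0962).

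The kinesin-2 relatives of Kif3b went the other way. Kif3a averaged 5.68 ± 0.04 in Eze and 6.11 ± 0.13 in Th17 (SD, n = 4 each), a difference of -0.43 (adjusted p = 0.00179). Kif3c read 5.77, 5.50, 5.66 and 5.70 in Eze, where the lowest Th17 array, at 5.72, fell inside the range of the Eze arrays. Its difference of -0.34 (adjusted p = 0.0319) was not called when arrays were centred (adjusted p = 0.133) or on the numbered arrays alone (adjusted p = 0.107). Kifap3, the adaptor that joins Kif3a and Kif3b to cargo, was higher in Eze by 0.39 ± 0.11 (adjusted p = 0.0161).

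Kif1a read 4.41, 4.17, 4.36 and 4.17 in Eze, and the lowest Th17 array was also 4.41 after rounding. The Eze arrays did not exceed any Th17 array, and the difference was -0.49 ± 0.11 (adjusted p = 0.00257). Kif13b was lower by 0.37 ± 0.09, with means of 6.13 in Eze and 6.50 in Th17 (adjusted p = 0.00396). Kif1b, Kif1c, Kif5a, Kif5b, Kif5c and Kif17 were not called, with differences from -0.15 to 0.15.

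Rosuvastatin-treated Th17 cultures were higher than Th17 in all 11 mitotic kinesins. The differences ran from 0.24 for Kif18b to 0.74 for Kif20b, with a median of 0.53 against a median of 0.06 over all genes. Of all genes, 13.6% were called higher and 12.4% lower. Kif20b read 8.05, 8.41, 8.22 and 8.42 in Rsv, against 7.72, 7.61, 7.40 and 7.41 in Th17. Its lowest Rsv array was above its highest Th17 array, and the difference was 0.74 ± 0.10 (adjusted p = 2.18e-05). Kif20a read 7.97, 8.11, 8.13 and 8.16 in Rsv, above all 4 Th17 arrays, a difference of 0.72 ± 0.09 (adjusted p = 5.39e-06). Kif15 read 7.40, 7.64, 7.68 and 7.68 in Rsv, and even the low unnumbered array exceeded the Th17 range of 6.84 to 7.06 (0.66 ± 0.09, adjusted p = 3.08e-05).

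Kif22 read 7.36, 7.56, 7.72 and 7.75 in Rsv, also clear of the Th17 arrays. The remaining mitotic differences in Rsv were 0.57 for Kif23, 0.56 for Kif2c, 0.53 for Kif14, 0.52 for Kif4, 0.49 for Kif11, 0.39 for Kif18a and 0.24 for Kif18b, and that of Kif22 was 0.38. For Kif18a the unnumbered Rsv array, at 6.68, fell below the highest Th17 array, at 6.72. With each array centred on its median, Kif18a (adjusted p = 0.0679), Kif18b (adjusted p = 0.205) and Kif22 (adjusted p = 0.0516) were no longer called, and 8 of the 11 were. All 11 calls held when any 1 Rsv or Th17 array was left out, the unnumbered Rsv array included. This count again depends on the class as drawn. Kif2a, placed in another class, was called lower in Rsv than in Th17 (-0.57), and Kifc1 was not called (-0.02).

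Kif1b was higher in Rsv than in any other group. It read 7.08, 7.18, 7.16 and 7.33 on Rsv arrays, against 6.29, 6.30, 6.15 and 6.20 on Th17 arrays. The Th0 arrays read 6.00, 5.83, 5.93 and 6.01, and the Eze arrays 6.18, 6.08, 6.27 and 6.26. Every Rsv array was thus above every array of the other 3 groups, by 0.95 ± 0.08 over Th17 (adjusted p = 6.11e-08) and by 1.24 ± 0.08 over Th0 (adjusted p = 1.22e-09). It was the only transport kinesin called higher in Rsv than in Th17, and the other 12 had differences between -0.67 and 0.25. Its call against Th17 was kept in every alternative test but the Mann-Whitney test adjusted over all genes, in which no gene was called.

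The 3 transport kinesins called lower in Rsv were Kif1a, Kif3c and Kif3a. With Kif1b as the 1 called higher, the class shares were 7.69% higher and 23.1% lower, beside 13.6% and 12.4% of all genes. Kif1a read 4.14, 4.14, 4.10 and 3.99 in Rsv, below every Th17 array, a difference of -0.67 ± 0.11 (adjusted p = 0.000125). Kif3c read 5.61, 5.68, 5.44 and 5.77 in Rsv, overlapping the Th17 arrays by 1 value, and its difference of -0.37 ± 0.11 (adjusted p = 0.0169) was lost on the numbered arrays alone (adjusted p = 0.116). Kif3a averaged 5.76 in Rsv and 6.11 in Th17 (adjusted p = 0.0079), and on the numbered arrays alone its difference was -0.24 (adjusted p = 0.0954).

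**Figure D3:**
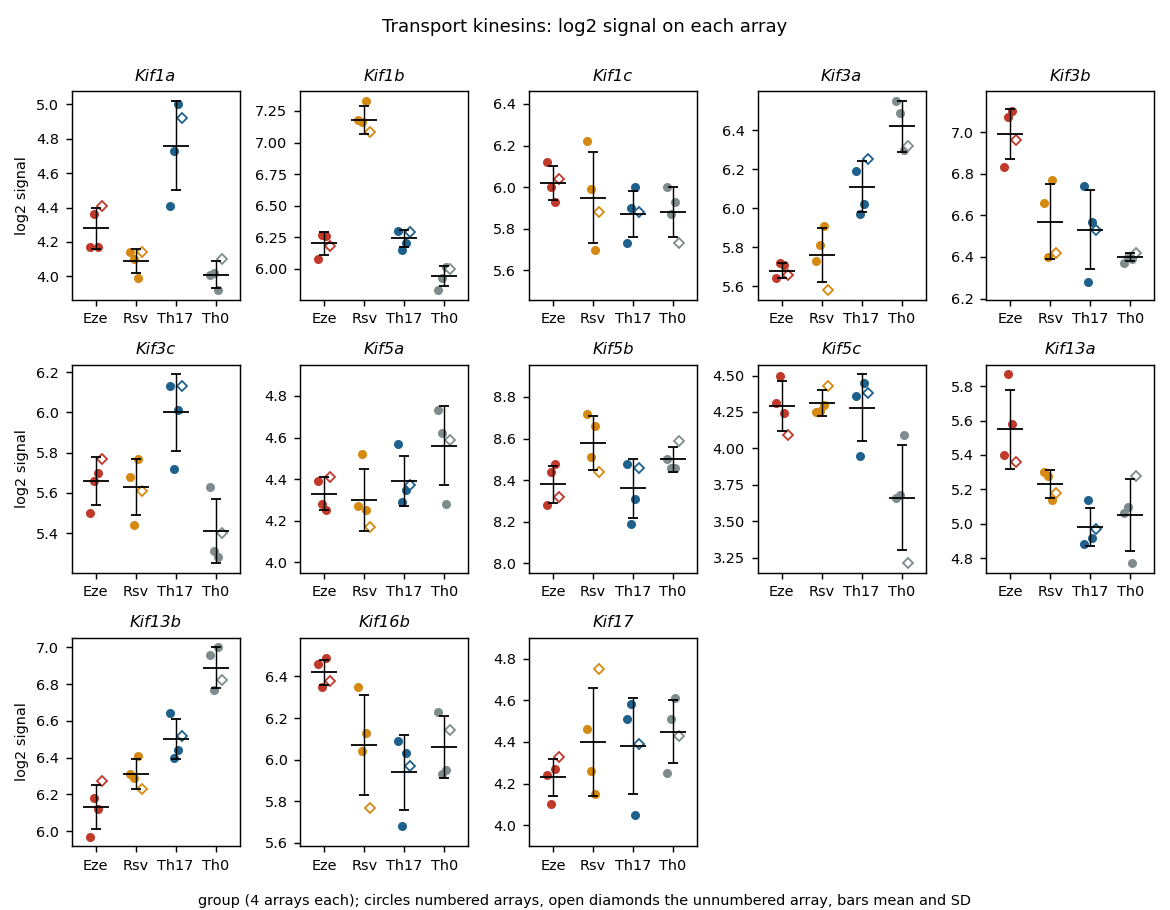
Log2 signal of each of the 13 transport kinesins on every array, drawn like the plot of mitotic kinesins, with its own vertical range for each gene. Kif1b is high on the 4 Rsv arrays (7.08 to 7.33), Kif1a on the 4 Th17 arrays (4.41 to 5.0), and Kif3a falls below the Th0 range of 6.30 to 6.55 on all Eze, Rsv and Th17 arrays.

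Both drug comparisons with Th17 use the same 4 Th17 arrays, which are also one side of the comparison with Th0, so the drug groups were set against Th0 as well. Kif1a averaged 4.28 in Eze and 4.09 in Rsv, against 4.01 in Th0, and neither difference was called. Kif3c averaged 5.66 in Eze and 5.63 in Rsv, against 5.41 in Th0, again without a call. Kif3a was lower than in Th0 by 0.73 in Eze and by 0.66 in Rsv (adjusted p = 8.92e-06 and 1.99e-05), and Kif13b by 0.76 and 0.58. Kif5c, with 4.09, 4.31, 4.50 and 4.24 in Eze and 4.43, 4.25, 4.26 and 4.30 in Rsv, was higher than in Th0 by 0.63 and 0.65.

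All 11 mitotic kinesins were above Th0 in both drug groups, with a median of 1.27 in Eze and 1.38 in Rsv. The background of calls higher than Th0 was 11.7% of genes in Eze and 13.4% in Rsv. The largest differences were those of Kif20a, at 1.50 in Eze and 1.82 in Rsv, taken from a Th0 mean of 6.28, below the 95th percentile of background. Of the transport kinesins, 5 were called higher in Eze than in Th0 and 2 lower, and in Rsv 2 were called higher and 2 lower. Their medians were 0.25 and 0.08, and 10.9% and 12.8% of all genes were called lower.

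**Figure D4:**
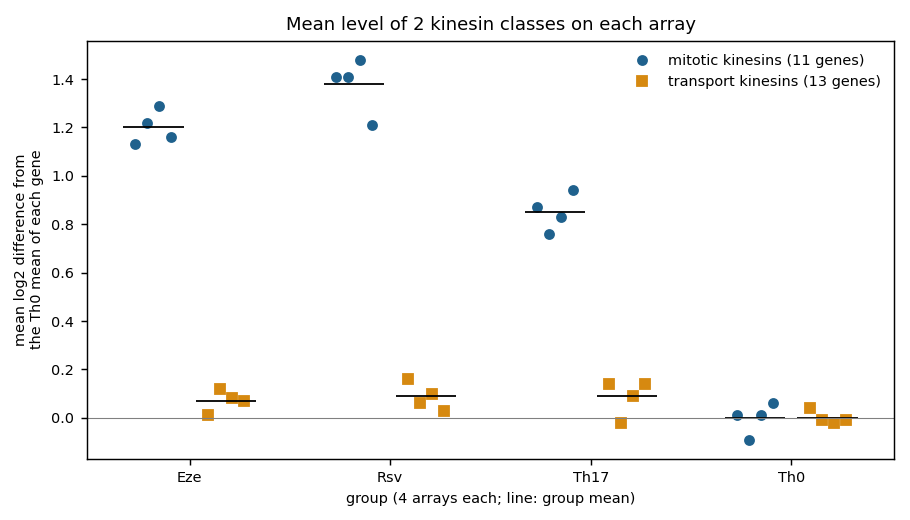
Mean log2 difference from each gene's Th0 mean, averaged over the 11 mitotic kinesins (circles) and the 13 transport kinesins (squares) for each array of the 4 groups. Mitotic means were 1.13 to 1.29 in Eze, 1.21 to 1.48 in Rsv, 0.76 to 0.94 in Th17 and -0.09 to 0.06 in Th0, and transport means were between -0.02 and 0.16 on all 16 arrays.

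Set directly against each other, Eze was lower than Rsv in 5 of the 11 mitotic kinesins, and none was higher. The median difference was -0.24, beside -0.08 over all genes, of which 13.3% were called higher and 15.2% lower. The 5 were Kif14 (-0.38), Kif20b (-0.33), Kif20a (-0.32), Kif11 (-0.27) and Kif18b (-0.24). Kif14 read 6.76, 6.60, 6.66 and 6.85 in Eze, against 6.92, 7.06, 7.13 and 7.26 in Rsv (adjusted p = 0.0136). Kif20a read 7.78, 7.75, 7.77 and 7.80 in Eze, below all 4 Rsv arrays (adjusted p = 0.011). Kif20b read 7.78, 7.86, 8.03 and 8.10 in Eze, and the highest of these was above the lowest Rsv array (adjusted p = 0.0216). None of the 5 was called when arrays were centred on their own medians, which put the median of the 11 genes at -0.08 and that of all genes at 0.08. Kif23 read 7.71, 7.73, 7.79 and 7.91 in Rsv and Kif4 read 7.05, 7.42, 7.21 and 7.31, and both overlapped the Eze arrays.

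Among transport kinesins, Kif1b was lower in Eze than in Rsv by 0.99 ± 0.08 (adjusted p = 4.49e-08). Kif3b read 6.42, 6.66, 6.40 and 6.77 in Rsv, all below the Eze arrays, and was higher in Eze by 0.43 ± 0.11 (adjusted p = 0.00549). Kif16b, with 5.77, 6.35, 6.04 and 6.13 in Rsv, was higher in Eze by 0.35, although its lowest Eze array and highest Rsv array agreed to the second decimal. Kif13a, with 5.18, 5.30, 5.28 and 5.14 in Rsv, was higher in Eze by 0.33. Both of these last calls were close to the threshold (adjusted p = 0.0329 and 0.0456) and were lost in several fits that left out 1 array. On the numbered arrays alone Kif1b was the single transport kinesin called.

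**Figure D5:**
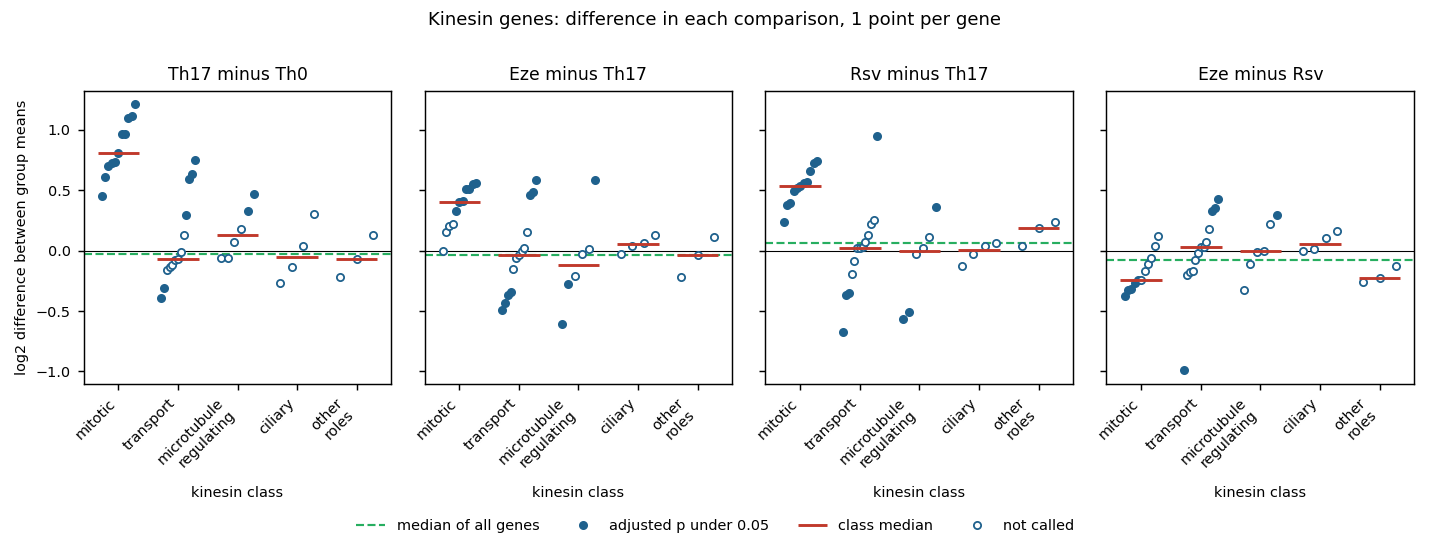
Log2 difference of each motor gene in 4 comparisons, by class. Filled points were called at an adjusted p under 0.05, open points were not, red bars are class medians and the dashed line is the median of all genes. The mitotic median was 0.81, 0.40, 0.53 and -0.24 in the 4 panels from left to right.

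In the microtubule regulating class, 3 of 6 genes had a call in at least 1 comparison. In Th17 against Th0, 2 of the 6 were higher and 0 lower, beside 8.5% and 7.29% of all genes. Against Th17, 1 was higher and 2 lower in Eze (16.7% and 33.3%, beside 11.2% and 10.5% of all genes). The same counts held in Rsv, beside 13.6% and 12.4% of all genes. The class was not tested against other genes. Kif24, which trims the microtubules of centrioles and holds back the cilium, read 6.34, 6.37, 6.34 and 6.43 in Eze, 5.89, 6.11, 6.18 and 6.40 in Rsv, 5.81, 5.71, 5.81 and 5.80 in Th17 and 5.24, 5.45, 5.31 and 5.27 in Th0. Its 3 treated or induced groups all lay above Th0, by 1.05 ± 0.09 in Eze, 0.83 ± 0.09 in Rsv and 0.47 ± 0.09 in Th17. In no group did its mean exceed the 95th percentile of background. Both drug groups exceeded Th17 in Kif24, Eze by 0.58 over Th17 (adjusted p = 9.81e-05) and Rsv by 0.36 over Th17 (adjusted p = 0.00658). The Rsv call was lost with centred arrays (adjusted p = 0.0744). Kif21b, which slows microtubule growth, averaged 7.61 ± 0.06 in Eze, 7.72 ± 0.14 in Rsv, 8.22 ± 0.04 in Th17 and 7.89 ± 0.04 in Th0 (SD, n = 4 each). Its Th17 arrays were above all others, by 0.33 over Th0 (adjusted p = 0.00558). Both drug groups were lower than Th17 in Kif21b, by 0.61 in Eze and by 0.51 in Rsv (adjusted p = 8.67e-06 and 7.17e-05).

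Kif2a, a depolymerase of microtubule ends, averaged 7.15 in Eze, 6.86 in Rsv, 7.43 in Th17 and 7.25 in Th0. Rsv was lower than Th17 by 0.57 ± 0.09 (adjusted p = 0.000113), while the Eze call (adjusted p = 0.0335) was lost when arrays were centred (adjusted p = 0.21). Kif2b, Kif19a and Kif21a were not called in any comparison, with signals between 2.26 and 4.38. No call was made either for the ciliary and Hedgehog kinesins Kif6, Kif7 and Kif27 or for Kif12, Kif26a and Kif26b. Kif9, a motor of motile cilia, was called once, lower in Rsv than in Th0 (3.36 and 3.75, adjusted p = 0.0143, with overlapping arrays). Of the genes that share only the symbol, Kif1bp and Kif4-ps were not called, and Kif16bos was called lower in Eze than in Rsv (2.81 and 3.21, adjusted p = 0.0275), a call that was lost when arrays were centred.

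Partners of the mitotic motors were called higher more often than lower in both drug groups. Of all genes, 11.2% were called higher and 10.5% lower in Eze against Th17, and 13.6% and 12.4% in Rsv against Th17. In Eze, 10 of the 19 partners were higher than in Th17 and 1 lower, with the kinases Plk1 (0.52) and Aurka (0.51) and the passenger protein Birc5 (0.49) in front and the spindle pole protein Numa1 at -0.31. In Rsv, 14 were higher and none lower, led by Birc5 (0.78), Plk1 (0.72) and the Kif23 partner Racgap1 (0.62). Eze was lower than Rsv in 4 of the 19 partners, Prc1 (-0.43), Racgap1 (-0.34), Nusap1 (-0.31) and Birc5 (-0.30). These are 21.1% of the partners, near the 15.2% of all genes called lower there, and the medians were -0.09 and -0.08. Among the G2 and M phase regulators, 12 of 20 were higher and 1 lower in Eze, and 14 were higher and 1 lower in Rsv, with the transcription factors Mybl2 (0.86) first in Eze and E2f8 (1.14) first in Rsv. Lin37, a subunit of the complex that binds CHR elements, was the lower gene in both (-0.45 and -0.41). Of the other Lin genes in this list, Lin9 was called higher in both (0.40 and 0.44), and Lin52 and Lin54 were called in neither. Cenpe was higher in Rsv than in Th17 by 0.66 ± 0.09, and in Eze it differed by 0.20 ± 0.09 (adjusted p = 0.115).

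Among partners of transport motors, 3 of 19 were higher in Eze than in Th17 and 4 lower (15.8% and 21.1%), beside 11.2% and 10.5% of all genes. In Rsv 2 were higher and 4 lower (10.5% and 21.1%), beside 13.6% and 12.4% of all genes. The list was not tested against other genes. The largest fall was that of Mapk8ip3, which links kinesin-1 to its cargo, with means of 7.25 in Eze and 6.85 in Rsv, against 8.08 in Th17 (-0.82 and -1.23). The kinesin light chain Klc4 fell by 0.58 in Eze and by 0.68 in Rsv. Madd, an adaptor for Kif1 motors, was higher in Th17 than in Th0 by 0.77 ± 0.07, and fell by 0.70 in Eze and by 0.23 in Rsv against Th17. Rhot1, the mitochondrial anchor for kinesin-1, rose in Eze by 0.38 (adjusted p = 0.00175), and in Rsv it differed from Th17 by -0.03.

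Dynein is the motor that runs opposite to most kinesins. Of 23 dynein and dynactin genes, Eze had 4 above Th17 and 1 below (17.4% and 4.35%), and Rsv had 4 above and 4 below (17.4% each), read beside the same shares of all genes. Dynlt3, a dynein light chain, averaged 5.64 in Eze and 4.65 in Rsv, against 5.87 in Th17, with a call in Rsv only (-1.22 ± 0.14, adjusted p = 2.29e-06), and Eze and Rsv differed by 0.98 (adjusted p = 3.56e-05). The dynactin subunit Dctn4 fell by 0.57 in Eze and by 0.65 in Rsv. Nde1, a dynein regulator needed in mitosis, rose by 0.50 in Th17 over Th0, and by 0.26 in Eze and 0.63 in Rsv over Th17.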

How the data were processed

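The deposited table held log2 values for 41345 array rows of 16 arrays, which per the methods were background corrected and summarised by RMA and then quantile normalized by the authors. The genome build and the annotation version were not given in the sources used here. A second deposited table held identical log2 values. The 33793 main rows gave 30921 genes, the brightest row by mean standing for a gene with several. Differences were tested with limma 3.58.1 in R 4.3.3, with 1 mean per group over all 16 arrays, moderated variances and Benjamini-Hochberg adjustment over all 30921 genes at 0.05. The fit was tested on simulated data. Array number limits the precision, and 4 arrays a group were used.

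Members, classes and gene lists were chosen with earlier results of these data known. All 40 symbols are named. Array values are given for mitotic and transport kinesins among the 3 largest called differences of their class in Th17 against Th0, Eze or Rsv against Th17, or Eze against Rsv, and for microtubule regulating or ciliary members called with a difference of at least 1 in any comparison. By rule the 3 largest called differences per context list and comparison could be named, and the further context genes were chosen after their values were seen. Lists were read by counts and medians, with no test. Same-numbered arrays did not deviate together (18 pairs, correlation -0.12 to 0.10, of which 1 was over 0.1), nor did all unnumbered arrays (6 pairs, -0.12 to 0.17, of which 2 were over 0.1), so neither was treated as pairs. Alternatives were centring each array, leaving out dim genes, averaging rows, fitting 2 groups alone, blocks, numbered arrays only, array weights, an intensity trend, the methods' Mann-Whitney test and leaving out each array. Medians on the unnumbered arrays alone were added after seeing the data. Promoter sequences are from RefSeq in GRCm38.p6.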

Additional observations from a re-analysis of the deposited data

Results flagged for a closer look

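In 3 of the 60 groups of 4 arrays looked at, 4 groups for each of the 15 kinesins with values on every array, a single array stood apart from the other 3 by more than Dixon's criterion allows. Chance alone marks about 1 in 20 such groups. For Kif15 in Rsv the unnumbered array read 7.40 and the other 3 read 7.64 to 7.68. For Kif20a in Th0 the unnumbered array read 6.48, against 6.19 to 6.23 on the numbered arrays. For Kif24 in Th17 array 1 read 5.71 and the others 5.80 to 5.81.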

How the results depend on the processing

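The Mann-Whitney test named in the methods, adjusted over all genes, called 0 genes in each of the 6 comparisons, so that 0 mitotic and 0 transport kinesins were called by it. At an unadjusted p under 0.05 it called 6062 genes in Th17 against Th0, 7883 in Eze against Th17, 7891 in Rsv against Th17 and 8864 in Eze against Rsv, and among these were 11, 9, 10 and 4 mitotic kinesins. With limma the counts were 4883, 6706, 8039 and 8804 genes, and 11, 7, 11 and 5 mitotic kinesins. With 4 arrays a group its smallest p is 0.0286.

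With dim genes left out 6528 genes remained, with all 11 mitotic and 3 transport kinesins. Then 4415 genes were called in Eze against Th17, 4464 in Rsv against Th17, 4002 in Eze against Rsv, 4278 in Eze against Th0 and 4489 in Rsv against Th0. Of the 3 transport kinesins, 1 was called in Th17 against Th0, 1 in Eze against Th17, 2 in Rsv against Th17, 2 in Eze against Th0 and 1 in Rsv against Th0. The transport median became 0.13 in Th17 against Th0, 0.22 in Rsv against Th17, -0.20 in Eze against Rsv and 0.17 in Rsv against Th0, over those 3 genes. The filter keeps a gene by its brightest group, Kif1b through Rsv alone, so these counts and medians depend on the differences they measure and support nothing.

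Centring each array on its median left 0 mitotic calls in Eze against Rsv and put the mitotic median at -0.08 there and at 1.37 in Eze against Th0. The transport median became 0.03 in Eze against Th17, -0.06 in Rsv against Th17, 0.19 in Eze against Rsv and 0.36 in Eze against Th0. The share of calls that were higher was 51.7% and became 64.1% in Eze against Th17, 52.2% and 35.8% in Rsv against Th17, 46.8% and 77.2% in Eze against Rsv, and 51.7% and 72.2% in Eze against Th0. The cause was not tested.

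On the numbered arrays alone 1 transport kinesin was called in Eze against Rsv. On the unnumbered arrays alone, a choice made after seeing the data, the mitotic median was 0.17 in Eze against Th17, 0.30 in Rsv against Th17, 1.17 in Eze against Th0 and 1.19 in Rsv against Th0, and the transport median was -0.11 in Rsv against Th17, 0.15 in Eze against Rsv, 0.17 in Eze against Th0 and 0.00 in Rsv against Th0. Leaving out 1 array at a time gave 2 to 3 transport calls in Eze against Rsv, with 2 without Eze array 3, Rsv array 2 or the unnumbered Rsv array. The transport median in Rsv against Th17 then ran from -0.05 to 0.06, the lowest without Th17 array 2.

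The replicate block, in which numbered arrays share a block by the number in the title and the unnumbered arrays form a block of their own although neither pairs the arrays, gave 4831 genes in Th17 against Th0, 6654 in Eze against Th17, 7995 in Rsv against Th17 and 8655 in Eze against Rsv, and changed no call among the 40 kinesin genes. Averaging rows, array weights, the intensity trend and the values of the other deposited table left every count of mitotic and transport calls within 1.5 times its value in the report.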
